A study of Mus musculus with 6 samples.

Results

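The nuclear genes of the mitochondrial respiratory chain were examined in mouse cortical cell cultures treated with 10HDA or vehicle. Members were chosen by symbol, from the protein-coding rows of the count table named Nduf, Sdha to Sdhd, Uqcr, Cyc1, Cox4i, Cox5 to Cox8 or Atp5. The rule uses no measured value, but it was set with earlier results of these data known. This gave 94 of the 43346 genes of the table. They comprised 38 subunits of complex I, 8 assembly factors of complex I (the Ndufaf genes, which do not stay in the finished complex), 4 genes of complex II, 9 of complex III, 18 of complex IV and 17 of complex V. Of these, 79 passed the filter on low counts, which asked for at least 10 CPM (counts per 1000000 counts of the library, TMM-scaled where values are given) in at least 3 libraries, against 10520 genes in all.

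10HDA (trans-10-hydroxy-2-decenoic acid) is a fatty acid of royal jelly, and the series asked which transcripts differ when it is given to primary cultures of fetal cortex. There were 3 vehicle libraries (DMSO, written DSMO in the labels) and 3 libraries treated with 1 mM 10HDA, and cultures 1, 3 and 4 each gave 1 library of each treatment. The labels give all 6 as primary cortical cells taken at gestational day 15.5 from Cyp19-EGFP fetuses of genotype SRY+, whereas the methods of the study name C57BL/6 embryos for this experiment. The length of treatment is not given in the sources used here, nor is the number of fetuses per culture.

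The respiratory chain passes electrons from NADH through complex I, or from succinate through complex II, to ubiquinone, then through complex III and cytochrome c to oxygen at complex IV. Complexes I, III and IV pump protons across the inner mitochondrial membrane, and complex V, the ATP synthase, makes ATP from their return. Mitochondrial DNA encodes a small core of subunits of complexes I, III, IV and V, and all other subunits, including the whole of complex II, come from the nucleus. Developing neurons depend on this pathway for much of their ATP.

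The libraries held 9144736 to 13367194 counts, so that 3 counts stood for 0.224 to 0.328 CPM. Neuronal markers were abundant (12 genes, summed 9292 to 9819 CPM in vehicle and 7760 to 8756 CPM in 10HDA libraries), and astrocyte markers were present (12 genes, 1520 to 1843 CPM and 1160 to 1424 CPM). Of the 11 astrocyte genes tested 10 had a negative fold change and 5 (Gfap, Aldh1l1, Aldoc, Clu, Slco1c1) fell. Of the 12 neuronal genes 11 had a negative fold change and 0 were called (edgeR's quasi-likelihood test, 5 at an unadjusted p under 0.05 and 5 lower with culture as a block). Over all genes tested 0.627% were called without a culture term, and 5.08% were called lower with culture as a block. Microglial markers summed to at most 1.34 CPM, with Tmem119 at 0 in every library. The part of these shifts in the values below was not tested, and in bulk RNA fewer cells of a type and less RNA per cell cannot be told apart. The 4 Y-linked genes checked summed to 8.87 and 9.10 CPM in the vehicle and 10HDA libraries of culture 1 against 95.7 to 132.9 CPM in the other 4 libraries, although the label SRY+ is the same for all. Results are therefore given also without culture 1.

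To show what lies around the start of genes that the comparisons below turn on, 130 bases (100 before the RefSeq start and 30 from it on, build GRCm38.p6, gene strand) are printed for Ndufc1, Atp5g3 and Uqcr11. These are the member with the highest fold change, the most abundant member called higher with culture as a block, and the only member called lower. Capitals mark matches to 4 motifs searched on both strands: the core of the NRF1 site CGCATGCG (a palindrome), the ERR site TCAAGGTCA, the ETS site CCGGAAGT and the YY1 site AAGATGGC. NRF1, the ERR receptors, the ETS-type factor GABP and YY1 are known regulators of respiratory chain genes.

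Ndufc1, chr3:51408926-51409055, minus strand: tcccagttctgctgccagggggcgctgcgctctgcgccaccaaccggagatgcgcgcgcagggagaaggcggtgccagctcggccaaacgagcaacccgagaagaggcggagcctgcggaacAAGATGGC

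Atp5g3, chr2:73911297-73911426, minus strand: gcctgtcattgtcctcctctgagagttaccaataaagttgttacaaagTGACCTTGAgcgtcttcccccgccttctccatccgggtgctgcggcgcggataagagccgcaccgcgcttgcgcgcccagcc

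Uqcr11, chr10:80406792-80406921, minus strand: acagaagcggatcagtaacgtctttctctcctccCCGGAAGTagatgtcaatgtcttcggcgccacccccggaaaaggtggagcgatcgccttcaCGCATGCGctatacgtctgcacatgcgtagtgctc

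Ndufc1 carried the YY1 letters from base 23 after the start. Atp5g3 carried the ERR letters on the opposite strand, from 52 bases before the start. Uqcr11 carried the ETS letters from 66 bases and the NRF1 core from 5 bases before the start. Over windows of 300 bases (250 before the start), 76 members had a RefSeq promoter. The NRF1 core stood in 11 of them (14.5%) against 2.07% of 27025 genes and 4.81% of the 7859 tested genes with a promoter. The YY1 letters stood in another set of 11 (14.5%, with Atp5j in both sets) against 3.19% and 5.89%. The ETS letters stood in 5 (6.58%) against 4.31% and 9.96%, and the ERR letters in 2, Atp5g3 and Sdhd (2.63%), against 0.466% and 0.28%. These 76 include members below the filter, and 66 of the 79 tested members had a promoter, which are the ones the medians here cover. The 8 tested members with the NRF1 core had a median log2 fold change of 0.065, and those of the 66 without it 0.038. The 10 with the YY1 letters had a median of 0.16, and those without 0.036. For the ETS letters the order was the opposite, with 0.037 for the 5 members that carry them and 0.057 for those without. A match of letters is a description of the window.

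Levels between genes were compared as CPM per kilobase of gene model, averaged over the 6 libraries. The members together took 0.532% to 0.668% of the counts of a library. Complex IV had the highest median level per length among tested members (61.9) and the assembly factors of complex I the lowest (11.3), with 31.1 for complex I subunits, 43.7 for complex II, 47.0 for complex III and 35.8 for complex V. Within complex I the level ran from 2.87 for Ndufb2 to 239.1 for Ndufa4, a protein grouped here by its name that is now placed with complex IV. Within complex V it ran from 6.83 for Atp5s to 204.2 for Atp5b, which encodes the catalytic beta subunit, and Atp5a1, the alpha subunit, stood at 184.75. Complex II, with only 4 genes tested, had the narrowest range of the complexes, from 26.4 for Sdhc to 52.4 for Sdhd, the membrane anchors. Lengths are those of all exons of a gene joined (365 to 4912 bases in complex V, up to 8086 in complex I), which lowers the level of a gene with a long rare exon.

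**Figure D1:**
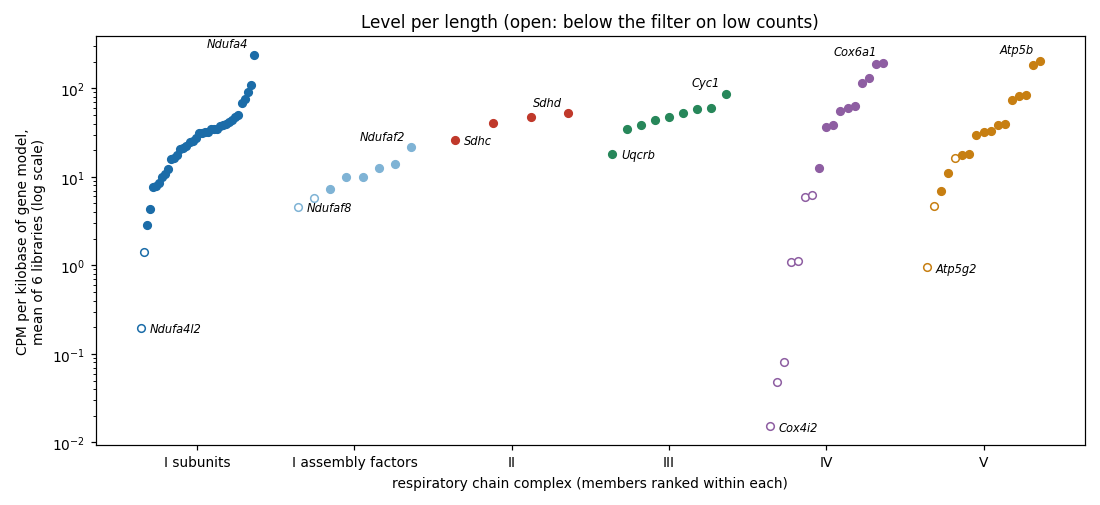
Level of each member in CPM per kilobase of gene model (mean of 6 libraries, log axis) ranked within its complex, with filled points for the 79 members tested and open points for members below the filter (Cox8c, at 0, is not drawn). Tested members spanned from 2.87 (Ndufb2) to 239.1 (Ndufa4), and the open points of complex IV, of which Cox4i2 at 0.015 was the lowest, lay below all its filled points.

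Several subunits of complex IV exist as a ubiquitous form and a form of muscle, testis or lung, and the latter were near 0 here. Cox4i1, the ubiquitous form of a regulatory subunit, made up 99.9% to 100% of the level per length of its pair, and Cox4i2, the lung form, had 1 count in all. Cox6b1 made up 98.8% to 99.3% of its pair and Cox8a 99.9% to 100% of its family, in which Cox8b had 2 counts in all and Cox8c had none. Cox8c is the only member without a count, and 0 counts allow at most 0.328 CPM in the shallowest library. Cox6a1 made up 97.3% ± 0.37 (SD, n = 3) of its pair in vehicle and 96.4% ± 0.77 in 10HDA libraries, with Cox6a2, the heart and muscle form, between 33 and 60 counts. In the Atp5g family, whose 3 genes encode the same mature c subunit of the membrane rotor, Atp5g3 made up 73.0% ± 2.16 in vehicle and 77.01% ± 5.06 in 10HDA libraries. Its share was 71.9%, 75.5% and 71.5% in the vehicle libraries of cultures 1, 3 and 4 and 77.6%, 81.8% and 71.7% in their 10HDA libraries. The shares of the groups overlapped, and those of culture 4 were nearly equal. Atp5g2 held 1.33% to 3.27% of this family, and Atp5g1 the rest.

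The Cox7a family held 2 genes with large shares. Cox7a2 made up 55.5%, 66.0% and 53.1% of its level per length in the vehicle libraries of cultures 1, 3 and 4 and 68.8%, 72.4% and 55.8% in the 10HDA libraries, higher in 3 of 3 cultures with overlapping groups. Cox7a2l, a relative that takes part in joining complexes III and IV into supercomplexes, made up 43.4%, 32.9% and 46.1% and then 29.8%, 27.1% and 42.5%. The muscle form Cox7a1 held 0.498% to 1.69%. No test was made on these shares.

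With 3 libraries against 3 and no culture term, 0 of the 79 members were called at an adjusted p under 0.1 by edgeR's quasi-likelihood test. Among all genes tested 66 (0.627%) were called. At an unadjusted p under 0.05 there were 3 members, Ndufc1, Ndufaf3 and Uqcr11, against 1059 of the 10520 genes tested. The count of members called was also 0 with DESeq2 and limma-voom. Log2 fold changes ran from -0.39 for Uqcr11 to 0.83 for Ndufc1, and 77 of 79 were smaller than 0.5 in size. The median over the tested members was 0.094 (49 above 0, 30 below) and over all genes tested -0.0095. The 95% interval of the fold change lay within 0.5 of 0 on the log2 scale for 45 members and within 1 for 76, so for most members a doubling was outside the interval. The median distance from the fold change to the end of its interval was 0.32.

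**Figure D2:**
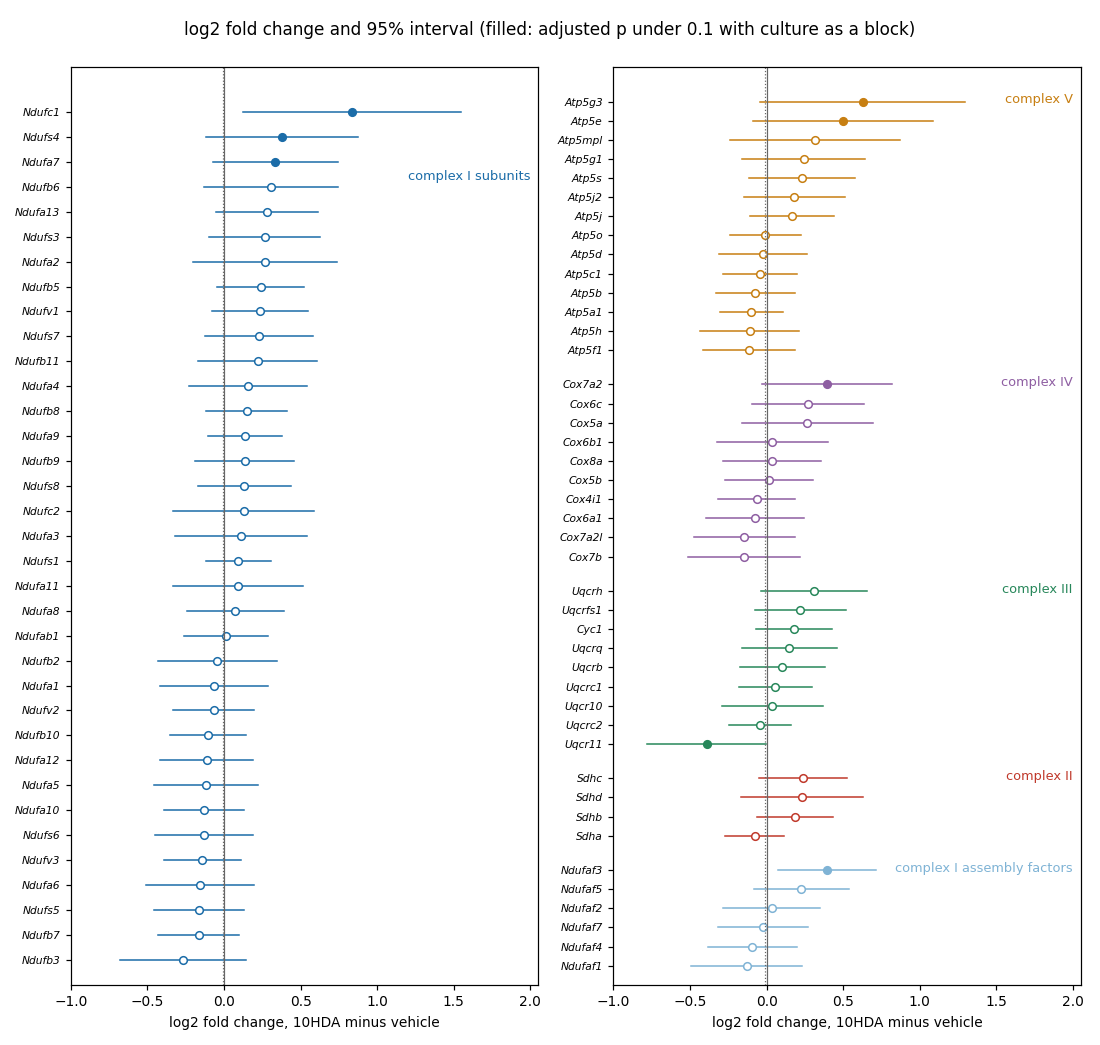
Log2 fold change (10HDA minus vehicle, n = 3 libraries each, points) with 95% intervals (lines) for tested members by complex (1 member is not drawn), from the fit without a culture term. The dotted line is the median of all genes tested (-0.0095), and filled points mark the 8 members called with culture as a block, from Uqcr11 at -0.39 to Ndufc1 at 0.83.

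The labels pair the libraries by culture, and with culture as a block 8 of 79 members were called (10.1%), 7 higher and 1 lower. Among all genes tested 945 (8.98%) were called, 411 higher (3.91%) and 534 lower (5.08%). The share of members called was thus close to that of all genes, with 8.86% of members called higher and 1.27% lower. Without TMM scaling the block gave 20 members higher and 0 lower, against 11.7% of all genes called (918 higher, 318 lower). In DESeq2 with the block 1 member, Ndufc1, was called, against 3.7% of all genes. Culture 3 bore on the direction: without its libraries the block called 5 of 77 members, 2 higher and 3 lower, against 10.6% of all genes. Without culture 1 it called 7 members, all higher, against 8.49%, and without culture 4 it called 5, all higher, against 3.47%. With no culture term and without the 10HDA library of culture 4, 7 members were called, all higher, against 3.41% of all genes.

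Ndufc1, a small accessory subunit in the membrane arm of complex I, had 10.4, 9.69 and 5.73 CPM in the vehicle libraries of cultures 1, 3 and 4, and 16.1, 21.6 and 7.57 CPM in their 10HDA libraries. It was higher in 3 of 3 cultures, yet the groups overlapped because culture 4 was low under both treatments. The mean went from 8.60 ± 2.51 to 15.1 ± 7.06 CPM (SD, n = 3), with a log2 fold change of 0.83 ± 0.32 (SE, adjusted p = 0.43 from edgeR) and 0.78 ± 0.16 with culture as a block (adjusted p = 0.0028). Of its 50-base words 5.25% are shared with several other genes, so the origin of reads there is uncertain.

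Atp5g3, the leading gene for the c subunit of ATP synthase, had 69.0, 76.8 and 52.1 CPM in vehicle and 105.7, 149.96 and 48.9 CPM in 10HDA libraries. It was higher in cultures 1 and 3 and slightly lower in culture 4, and the groups overlapped. The log2 fold change was 0.63 ± 0.30 (SE, adjusted p = 0.52) and 0.52 ± 0.13 with the block (adjusted p = 0.015). Atp5e, the epsilon subunit of the same enzyme's central stalk, followed the same order of libraries. It had 27.8, 28.7 and 21.9 CPM in vehicle and 38.7, 51.6 and 19.6 CPM in 10HDA libraries, and the block gave 0.43 ± 0.14 (adjusted p = 0.063).

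Cox7a2, the broadly expressed form of a small subunit of complex IV, had 45.3, 46.2 and 33.8 CPM in vehicle and 61.1, 65.1 and 37.5 CPM in 10HDA libraries. It was higher in 3 of 3 cultures with overlapping groups, at 0.37 ± 0.10 on the log2 scale with the block (adjusted p = 0.036). Ndufs4, an accessory subunit of complex I whose loss causes an encephalopathy in mice, had 36.4, 39.3 and 23.5 CPM in vehicle and 49.7, 50.1 and 28.5 CPM in 10HDA libraries. It was higher in 3 of 3 cultures, by 0.45, 0.35 and 0.28 in cultures 1, 3 and 4, and the block gave 0.36 ± 0.11 (adjusted p = 0.041).

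Ndufaf3, an assembly factor of complex I, had 17.8, 14.9 and 13.96 CPM in vehicle and 22.4, 20.7 and 18.0 CPM in 10HDA libraries. It is the only member in which each 10HDA library lay above each vehicle library, and its log2 fold change was 0.39 ± 0.15 (SE, adjusted p = 0.41) and 0.39 ± 0.12 with the block (adjusted p = 0.06). Ndufa7, an accessory subunit of complex I, was higher in 3 of 3 cultures, from a mean of 33.7 ± 5.89 to 42.3 ± 10.3 CPM (block log2 fold change 0.32 ± 0.11, adjusted p = 0.087). The groups did not overlap for 13.4% of all genes tested and for 3 members, which were Ndufaf3 and, in the lower direction, Atp5a1 and Sdha.

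Uqcr11, a small subunit of complex III, had 40.05, 23.2 and 31.9 CPM in vehicle and 24.5, 23.9 and 23.8 CPM in 10HDA libraries. The 10HDA libraries were alike and the vehicle libraries of cultures 1 and 4 stood above them, while that of culture 3 did not. The log2 fold change was -0.39 ± 0.18 (SE, adjusted p = 0.49) and -0.36 ± 0.13 with the block (adjusted p = 0.098), and 10.9% of its 50-base words are shared with another locus, Gm16418. Without culture 3 the block gave -0.57 (adjusted p = 0.00076).

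The block fit was also made with each culture left out in turn, on 2 cultures. Cox7a2 was called each time, at 0.30 to 0.47 on the log2 scale (adjusted p = 0.071 to 0.096). Ndufs4 kept its size, at 0.34, 0.37 and 0.41 without culture 1, 3 or 4, and passed the threshold without culture 3 (adjusted p = 0.13, 0.042 and 0.16). Ndufaf3 stood at 0.44, 0.35 and 0.41 and passed without culture 1 (adjusted p = 0.083, 0.15 and 0.26). The fits of the other genes moved more. Atp5g3 stood at 0.50, 0.29 and 0.80 and Atp5e at 0.43, 0.19 and 0.67, and both were called without culture 1 or 4 but not without culture 3 (adjusted p = 0.10 and 0.43). Ndufa7 stood at 0.38, 0.21 and 0.39 and passed without culture 1 (adjusted p = 0.072, 0.34 and 0.19). Uqcr11 stood at -0.16, -0.57 and -0.33 and passed without culture 3 (adjusted p = 0.61, 0.00076 and 0.41). Ndufc1 fell below the filter on low counts without culture 1 or 3, and without culture 4 it was called at 0.91 (adjusted p = 0.0002).

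Beyond these 8 calls, 12 members had an unadjusted p under 0.05 with the block and did not pass the adjustment, and all 12 had positive fold changes of 0.21 to 0.29 on the log2 scale. They were Ndufa13, Ndufb5, Ndufb6, Ndufs3 and Ndufs7 of complex I, Sdhc and Sdhd of complex II, Uqcrfs1 and Uqcrh of complex III, Cox5a and Cox6c of complex IV and Atp5mpl of complex V. Ndufa13, an accessory subunit also known as a cell death regulator, came closest, with 47.1 ± 8.24 CPM in vehicle and 57.1 ± 9.03 CPM in 10HDA libraries and a block log2 fold change of 0.28 ± 0.10 (adjusted p = 0.11). Just inside the threshold stood Uqcr11 and Ndufa7, above. Of the 10520 genes tested 2105 had an unadjusted p under 0.05 with the block. The 6 members that were lower in 3 of 3 cultures were Ndufa5, Ndufb3, Ndufs5, Sdha, Uqcrc2 and Atp5a1, none of them called in either fit.

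**Figure D3:**
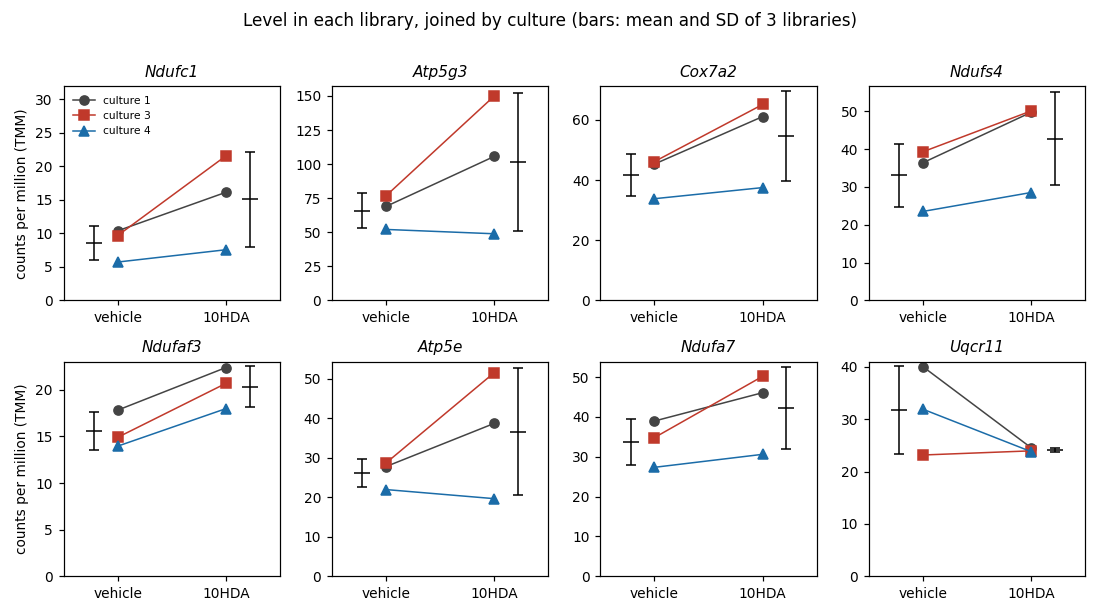
CPM after TMM scaling in each of the 6 libraries for the 8 members called with culture as a block, with lines joining the 2 libraries of a culture and black bars for the mean and SD of 3 libraries per treatment. Culture 4 is lowest under both treatments for all 7 members called higher, Atp5g3 and Atp5e slope down in culture 4 only, and Uqcr11 has 10HDA libraries between 23.8 and 24.5 CPM.

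The differences within cultures were not alike. In culture 3, 65 of 79 members were higher under 10HDA (82.3%, against 47.6% of all genes tested), with a median log2 difference of 0.19 against -0.016 for all genes. In culture 1, 42 were higher (53.2% against 49.7%), with a median of 0.012, and in culture 4, 38 were higher (48.1% against 49.4%), with a median of -0.011. All 10 tested members of complex IV were higher in culture 3, while 5 were in culture 1 and 3 in culture 4. Of the 79 members 23 were higher and 6 lower in 3 of 3 cultures, against 1955 and 2204 of the 10520 genes tested. The median over the members was 0.028 without culture 3, 0.19 without culture 1 and 0.13 without culture 4. It was also higher than the median of all genes under each scaling tried (0.094 to 0.17 for members, -0.0095 to 0.064 for all genes).

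Gene length and base composition moved with the difference in culture 3 over all genes tested. Spearman's rho with log length was -0.38 and with GC content 0.36, against 0.23 and -0.25 in culture 1 and -0.16 and -0.25 in culture 4. The members are shorter than most genes (median 1501 against 4137 bases) with the same median GC content (49.7%). Among the 79 members themselves, rho with log length was -0.086, -0.11 and 0.21 in cultures 1, 3 and 4 and with GC content -0.082, 0.22 and -0.19. For the fold change over cultures it was -0.0019 with log length and -0.0040 with GC content. These are correlations across genes that share 1 pair of libraries. The part of length in the culture 3 difference was not tested, and with a length trend taken out of the counts the median over the members was 0.073 against 0.0011 for all genes.

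**Figure D4:**
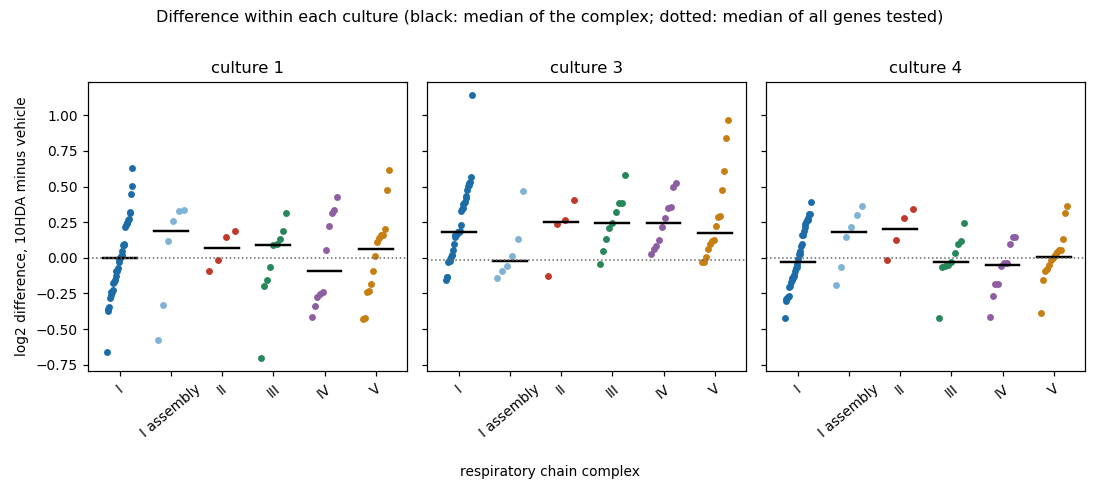
Log2 difference between the 10HDA and the vehicle library of cultures 1, 3 and 4 for each tested member (points, by complex), with the median of the complex (black) and of all genes tested (dotted). In culture 3 the points of complex I subunits and of complexes II to V lie mostly above 0 (median of all members 0.19). Of the 6 assembly factors of complex I 3 do. In cultures 1 and 4 the median of all members is 0.012 and -0.011, with complex II at 0.20 in culture 4.

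Complex I subunits had a median log2 fold change of 0.12 (23 of 36 above 0, 3 higher and 0 lower with the block). Ndufs1 and Ndufv1, core subunits of the arm that takes electrons from NADH, were not called in either fit. Ndufs1 had 77.2 ± 4.08 CPM in vehicle and 82.5 ± 3.37 CPM in 10HDA libraries, a log2 fold change of 0.094 with a 95% interval from -0.12 to 0.30. Ndufv1, which binds the flavin, stood at 0.24 (interval -0.077 to 0.55). Ndufb3, an accessory subunit of the membrane arm, had the lowest value, -0.27 ± 0.19 (SE), and its difference came mostly from culture 1 (-0.66, against -0.021 and -0.069 in cultures 3 and 4). The assembly factors of complex I, which help to build the enzyme, had a median of 0.0051 (3 of 6 above 0), which was -0.028 with the length trend removed and 0.14 with no filter or under filterByExpr (5 of 8 above 0), from Ndufaf1 at -0.13 to Ndufaf3 at 0.39.

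Complex II, which is also the succinate dehydrogenase of the citric acid cycle, had the highest median of the complexes, 0.21. Sdhb, the iron-sulfur subunit, was higher in 3 of 3 cultures with a log2 fold change of 0.19 ± 0.11 (SE), and the anchors Sdhc and Sdhd stood at 0.24 ± 0.13 and 0.23 ± 0.18. The flavoprotein Sdha had 190.5, 185.8 and 183.8 CPM in vehicle and 178.2, 170.2 and 182.1 CPM in 10HDA libraries. These groups did not overlap, but the log2 fold change was -0.079 with an interval from -0.27 to 0.11 (adjusted p = 0.76). None of the 4 genes was called in either fit, with 0 at an unadjusted p under 0.05 in the fit without a culture term.

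Complex III had a median of 0.10 (7 of 9 above 0). The catalytic subunits Cyc1 (cytochrome c1) and Uqcrfs1 (the Rieske protein) were each higher in 3 of 3 cultures, at 0.18 ± 0.11 and 0.22 ± 0.14 (SE), with adjusted p = 0.60 and 0.59 in edgeR. Uqcrc1, a core protein, stood at 0.057 (interval -0.18 to 0.29), and Uqcrh, the hinge protein, had the highest value, 0.31 ± 0.16. Complex IV had a median of 0.025 (6 of 10 above 0), which was -0.0014 with the length trend removed. Cox4i1 had 207.0 ± 30.7 CPM in vehicle and 197.8 ± 4.19 CPM in 10HDA libraries, a log2 fold change of -0.065 with an interval from -0.32 to 0.19, which turned to 0.0071 under library size alone. Cox5a, a matrix-side subunit, stood at 0.27 ± 0.19 and Cox7b at -0.15 ± 0.17, the lowest of the complex.

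Complex V had a median of 0.078 (7 of 14 above 0), which was -0.055 with the block and without culture 3. Its catalytic subunits had narrow intervals around 0. Atp5a1 had 624.3, 577.0 and 596.0 CPM in vehicle and 550.5, 564.4 and 563.0 CPM in 10HDA libraries, lower in 3 of 3 cultures, with a log2 fold change of -0.099 and an interval from -0.31 to 0.11. Atp5b, the most abundant member, had 887.4 ± 102.5 CPM in vehicle and 842.6 ± 60.5 CPM in 10HDA libraries, at -0.075 (interval -0.33 to 0.18). Atp5f1, the peripheral stalk subunit b, was the lowest at -0.12 ± 0.14, and 38.7% of its 50-base words are shared with other genes. Atp5g3 and Atp5e, above, stood at the other end, followed by Atp5mpl at 0.31 ± 0.25 and Atp5g1 at 0.24 ± 0.18. Atp5g2, also a c subunit gene, was below the filter.

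The other 15 members were below the filter. Ndufb4 had 8 to 40 counts, and a row for a processed copy of it, Ndufb4c, held 257 to 353. Of the 50-base words of Ndufb4 37.0% are shared with this copy or other loci, so the level of Ndufb4 is uncertain. The same holds for Atp5l, with 84.8% of its words shared (24 to 37 counts), Cox7c with 27.9% and Atp5g2 with 14.8%. Atp5k (51 to 203 counts), Cox7c (60 to 87), Ndufaf6 (72 to 97) and Ndufaf8 (19 to 92) were, with Cox6a2, the untested members with the most counts. With no filter, 5 of 93 members with a count were called by edgeR, all higher, against 2.37% of all genes. Among the tested members, 23 share over 10% of their 50-base words with other genes. Their median log2 fold change was 0.015, against 0.093 for the 38 that share none.

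The 13 subunits encoded by mitochondrial DNA, which are made from other promoters by a separate polymerase, had mostly negative fold changes. Their summed level was 34676 to 51600 CPM in vehicle and 30235 to 43256 CPM in 10HDA libraries, with 11 of 13 below 0 and a median log2 fold change of -0.22 (-0.14 under library size alone). None was called without a culture term (0 at an unadjusted p under 0.05 in edgeR), and the block called 2 of 13 lower, against 5.08% of all genes tested. These were mt-Atp8 (91.7 ± 30.2 CPM in vehicle, 66.8 ± 26.0 CPM in 10HDA libraries, block log2 fold change -0.48, adjusted p = 0.0043) and mt-Atp6 (-0.27, adjusted p = 0.094), neighbours that encode membrane subunits of complex V and overlap on the mitochondrial genome. The medians were -0.032, -0.19 and -0.38 in cultures 1, 3 and 4, so in culture 3 most of these genes were lower while most nuclear members were higher. The difference between the nuclear and the mitochondrial genes was not tested.

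Genes that build or feed the chain were examined by the same fits. With the block, which called 3.91% of all genes higher and 5.08% lower, 1 of 6 assembly factors of complex III (Uqcc2), 1 of 12 of complex IV (Cox14) and 1 of 5 genes for assembly and control of complex V were higher, and 0 of 8 further assembly factors of complex I. The complex V gene was Tmem70, which is needed to assemble the enzyme, with 21.1 ± 4.56 CPM in vehicle and 30.2 ± 3.23 CPM in 10HDA libraries (block log2 fold change 0.53, adjusted p = 0.0067). Atp5mpl, 1 of these 5 genes, is also counted among the members of complex V. Of 15 electron carriers and coenzyme Q genes 2 were higher, Etfa (0.47, adjusted p = 0.047) and Etfb (0.43, adjusted p = 0.042), the chains of the flavoprotein that passes electrons from fatty acid oxidation to the chain. This list had a median of 0.16, with 12 of 15 above 0. None of 8 adenine nucleotide and phosphate carriers or uncouplers was called by the block (1 at an unadjusted p under 0.05). None of these lists held a gene called without a culture term.

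No regulator of the chain's transcription was called. Of 18 listed 13 were tested, 0 were called in either fit and 0 had an unadjusted p under 0.05 in either, with a median log2 fold change of 0.023. Nrf1 had 35.5 ± 2.13 CPM in vehicle and 35.9 ± 1.37 CPM in 10HDA libraries, Yy1 48.0 ± 2.66 and 48.3 ± 3.82 CPM, and Gabpa 44.7 ± 0.54 and 45.5 ± 4.27 CPM. Esrra, the ERR receptor that passed the filter, had 24.9 ± 2.16 and 28.4 ± 3.67 CPM, at 0.19 on the log2 scale (adjusted p = 0.64 in edgeR). Ppargc1a, a coactivator of these factors, had 27.7 ± 5.65 and 29.5 ± 3.42 CPM.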

How the data were processed

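The authors sequenced RNA as 6 libraries (SureSelect strand-specific kit, single-end reads of 50 bases), aligned untrimmed reads to mm10 with Subjunc (Subread 1.4.4) and counted them per Gencode gene with featureCounts. The strand setting is not given in the sources used here. The deposited values are raw counts, with no normalization, and 0 columns belonged to other samples. Symbols and coordinates came from GENCODE release M21 (GRCm38), which matched 98.0% of rows.

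The filter (10 CPM or more, 3 or more libraries) left the genes fitted with edgeR 4.0.16 (R 4.3.3), TMM scaling, the quasi-likelihood test and Benjamini-Hochberg adjustment over all genes tested (threshold 0.1). The study's methods name edgeR, TMM and that adjustment, and the quasi-likelihood test was chosen here. Standard errors are the fold change over the root of F. Alternatives included DESeq2 1.42.0, limma-voom (limma 3.58.1), other scalings, other filters and culture as a block. Within-culture differences used a prior count of 2. Scripts were tested on simulated data. Both libraries of a culture deviated together across genes (r = 0.37, 0.24 and 0.62 for cultures 1, 3 and 4, against -0.45 to 0.18 between cultures). Without a culture term, p-values rest on the spread between the 3 libraries of a treatment. With culture as a block, they rest on how much the treatment difference varies between the 3 cultures. In both fits edgeR draws the spread of a gene towards that of other genes. Atp5g3 differed by 0.61, 0.96 and -0.091 on the log2 scale in cultures 1, 3 and 4, yet its block SE was 0.13. A call with the block therefore need not mean that the cultures were alike. An exact permutation test of 3 against 3 cannot go below 0.1, so none is given. Limits from 3 counts cover counting error only, and 95% intervals come from the fit.

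Members and lists were chosen with earlier results of these data known. Genes named are members called in either fit, the highest and lowest fold change and the highest CPM of each complex, core subunits and isoform families. Ndufb2, Ndufa4, Atp5s, Sdhd, members short of the threshold or lower in each culture, low members with pseudogene copies and called genes of related lists were named after their values were seen. The values of 1 member enter the counts and medians but are not reported here.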

Additional observations from a re-analysis of the deposited data

How the results depend on the processing

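Over all genes tested, 66 were called. With culture as a replicate block there were 945, with the block and library size alone 1236, with the block in DESeq2 389, with the block and the length trend removed 1362, and with the block at a threshold of 0.05 604. With the block and without culture 1, 3 or 4 there were 869, 1089 and 358. No filter gave 636, DESeq2 170 and a threshold of 0.05 43. Leaving out a library or culture gave 0 to 355. Of the members 0 were called. The block gave 8, with library size alone 20, in DESeq2 1, with the length trend removed 9 and at 0.05 4, and 7, 5 and 5 without culture 1, 3 or 4. No filter gave 5, and leaving out a library or culture 0 to 7, the 7 being without the 10HDA library of culture 4.

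Leaving out a library or culture moved the median log2 fold change over the members (0.094) from 0.028 to 0.20, of complex II (0.21) from 0.11 to 0.32 and of complex V (0.078) from -0.064 to 0.15. That of complex V was -0.055 with the block without culture 3. That of the complex I assembly factors (0.0051) was 0.14 with no filter and 0.14 under filterByExpr, which test 8 of them. Signs turned for members called neither without nor with the block. Upper quartile scaling put Ndufaf7 at 0.0055, and library size alone put Cox4i1 at 0.0071 and Ndufaf7 at 0.049. The block with library size alone gave 0.0026 for Atp5b, 0.018 for Cox4i1, 0.015 for Cox6a1 and 0.043 for Ndufaf7. The block without culture 1 gave 0.031 for Atp5b, 0.079 for Atp5f1, 0.062 for Cox4i1, 0.10 for Cox6a1, -0.076 for Cox6b1, 0.041 for Cox7a2l and 0.13 for Ndufaf1. The block without culture 3 gave -0.0058 for Cox6b1, -0.090 for Cox8a, 0.033 for Ndufaf7 and -0.026 for Uqcrc1. The block without culture 4 gave 0.0097 for Cox6a1, and with the length trend removed -0.0095 for Cox6b1. Leaving out a library or culture gave -0.15 to 0.040 for Atp5b, -0.25 to 0.074 for Atp5f1, -0.17 to 0.071 for Cox4i1, -0.27 to 0.13 for Cox6a1, -0.12 to 0.22 for Cox6b1, -0.29 to 0.037 for Cox7a2l, -0.31 to 0.047 for Cox7b, -0.12 to 0.23 for Cox8a, -0.29 to 0.13 for Ndufaf1, -0.12 to 0.065 for Ndufaf7 and -0.032 to 0.19 for Uqcrc1. The causes were not tested.

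The fits with the block without culture 3 or 4, with the length trend removed or at 0.05 were chosen after seeing the data. At 9144736 to 13367194 counts a library, members under the filter rest on few reads, and the number of cultures limits the rest.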

Other observations

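Ribosomal protein genes, which are short like the respiratory chain genes, are given for the same samples. With culture as a block in edgeR, 16 of 76 tested genes of the cytosolic ribosome were called higher and 0 lower, against 3.91% and 5.08% of all genes tested. Without a culture term 0 were called (11 at an unadjusted p under 0.05). Their median log2 fold change was 0.17, with 63 of 76 above 0, and 0.091, 0.30 and 0.090 in cultures 1, 3 and 4. Without culture 3 the median was 0.087. The mitochondrial ribosome, which translates the subunits encoded by mitochondrial DNA, had 3 of 71 tested genes called higher and 0 lower with the block, and 0 called without a culture term (4 at an unadjusted p under 0.05). Its median was 0.041 over cultures, 0.15 in culture 3, and -0.0028 without culture 3.

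Processed copies with a respiratory chain symbol filled 11 rows of the table. Cox6c2 held 178 to 551 counts and Ndufs6b 120 to 181 counts a library. Cox6c2 was tested and had a log2 fold change of 0.20 (adjusted p = 0.77 in edgeR and 0.49 with the block).

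Other marker lists were measured too. Of 7 tested markers of the oligodendrocyte lineage 3 had positive fold changes (Olig2 at 0.24, Mog at 0.11 and Olig1 at 0.059). Cspg4 fell (log2 fold change -0.92, adjusted p = 0.043 in edgeR), Pdgfra (-1.21) and Sox10 (-1.44) were called lower with the block only, and Mbp stood at -0.059. Of 8 listed markers of endothelial cells or pericytes only Pdgfrb was tested, and it fell (-1.07, adjusted p = 0.043 in edgeR). The rest of that list was below the filter on low counts, so its direction rests on 1 gene. The intermediate progenitor markers Insm1 and Btg2 were higher with the block (both 3 of 3 cultures, 0.74 and 0.65) and not called without it (adjusted p = 0.15 and 0.28), while Sstr2 stood at -0.27, lower in 3 of 3 cultures and not called. Eomes was below the filter, with differences of 0.56, -0.0033 and -0.65 in cultures 1, 3 and 4. Of 10 tested markers of excitatory neurons the block called 2 lower, and of 9 of interneurons 4 lower. It called 1 higher and 1 lower of 7 of radial glia, and 0 in either direction of 5 of dividing cells (1 at an unadjusted p under 0.05). Over all genes tested the block called 3.91% higher and 5.08% lower. Markers of meningeal fibroblasts and erythroid cells summed to at most 12.2 and 4.26 CPM in any library.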
